A study of Mus musculus with 8 samples.

Results

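Collagen genes were followed across the cell types of the developing mouse kidney and between *Trim28* genotypes. The members were all genes of the deposited matrix whose symbol has the form of a collagen chain name (Col, type, a, chain), which gave 44 of 32285 genes. The matrix came from a single-cell experiment on 1 pool of kidney cells from mouse embryos, labelled male and staged E17.5 by the labels and a day later by the study's methods. Cells of different mice carried different multiplexing tags, and the tag list names 4 mice, 2 ko and 2 wt. In the pool 8 tags were in use, and the 4365 cells with 1 of the 4 tags that the list does not name were left out because nothing here ties them to a mouse. The ko mice were *Trim28*Δ/Δ, in which a *Six2*-driven Cre removes floxed *Trim28* in nephron progenitors and their descendants, and the wt mice were *Trim28*f/f, with the floxed alleles only. *Trim28* encodes a corepressor that silences chromatin. Stromal, endothelial and immune cells and the ureteric lineage do not descend from *Six2*-expressing progenitors, so the transgene as a model leaves *Trim28* in them. The 6 bulk samples of P0 kidneys in the series were not analysed here.

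Collagens are trimers of α chains that leave the cell after hydroxylation, glycosylation and folding in the endoplasmic reticulum. Fibrillar collagens form the fibres of the interstitium, whereas collagen IV forms the network of basement membranes. In the kidney, basement membranes under tubules and vessels contain the Col4a1 and Col4a2 chains, and podocytes lay down the Col4a3, Col4a4 and Col4a5 chains of the mature glomerular basement membrane. Other members decorate fibrils (FACIT collagens), form beaded microfibrils (collagen VI), span the plasma membrane, or belong to the basement membrane zone as proteoglycan-like multiplexins, of which Col18a1 carries endostatin.

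Promoter windows of collagen IV genes that are read in opposite directions from neighbouring starts, and of Col1a2, are shown because the chains of these pairs had different levels in many cell types below. Col4a1 (chr8:11198423-11312826, minus strand) and Col4a2 (chr8:11312805-11449287, plus strand) overlap by 22 bases at their starts in the GENCODE M21 annotation of GRCm38. Col4a4 (chr1:82448423-82586849, minus strand) and Col4a3 (chr1:82586921-82722059, plus strand) start 71 bases apart, and Col4a6 (chrX:141165403-141474076, minus strand) and Col4a5 (chrX:141475385-141689234, plus strand) 1308 bases apart. The sequences are RefSeq windows of GRCm38.p6 from 250 bases before to 50 bases after a gene's start, 5′ to 3′ on the gene's strand, and capitals mark the CCAAT box, the GC box (GGGCGG) and the TATA box (TATAAA) on either strand. The windows are chr8:11312777-11313076 (minus) for Col4a1, chr8:11312555-11312854 (plus) for Col4a2, chr1:82586800-82587099 (minus) for Col4a4, chrX:141475169-141475468 (plus) for Col4a5, chrX:141474027-141474326 (minus) for Col4a6 and chr6:4505368-4505667 (plus) for Col1a2.
Col4a1: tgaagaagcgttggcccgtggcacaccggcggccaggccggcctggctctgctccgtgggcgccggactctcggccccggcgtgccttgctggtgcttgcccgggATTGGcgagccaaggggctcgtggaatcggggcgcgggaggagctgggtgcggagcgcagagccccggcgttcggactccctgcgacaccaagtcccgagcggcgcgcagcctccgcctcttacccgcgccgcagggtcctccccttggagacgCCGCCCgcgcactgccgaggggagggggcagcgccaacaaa
Col4a2: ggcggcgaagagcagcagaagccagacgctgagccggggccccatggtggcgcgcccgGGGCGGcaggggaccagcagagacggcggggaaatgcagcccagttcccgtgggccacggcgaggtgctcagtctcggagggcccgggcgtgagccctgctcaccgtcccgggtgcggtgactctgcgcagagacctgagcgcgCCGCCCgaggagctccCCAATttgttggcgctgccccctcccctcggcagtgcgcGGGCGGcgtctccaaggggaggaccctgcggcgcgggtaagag
Col4a4: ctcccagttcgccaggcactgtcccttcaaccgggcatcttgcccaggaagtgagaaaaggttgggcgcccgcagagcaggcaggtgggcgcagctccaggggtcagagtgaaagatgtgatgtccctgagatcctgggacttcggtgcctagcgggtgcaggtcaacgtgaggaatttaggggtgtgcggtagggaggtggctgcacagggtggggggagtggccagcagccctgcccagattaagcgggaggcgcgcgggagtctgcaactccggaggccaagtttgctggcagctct
Col4a5: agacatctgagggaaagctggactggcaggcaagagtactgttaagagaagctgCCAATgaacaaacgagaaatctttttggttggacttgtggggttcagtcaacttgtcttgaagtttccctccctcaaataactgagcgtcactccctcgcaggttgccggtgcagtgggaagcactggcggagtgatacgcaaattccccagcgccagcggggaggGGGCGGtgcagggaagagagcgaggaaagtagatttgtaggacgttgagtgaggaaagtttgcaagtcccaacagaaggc
Col4a6: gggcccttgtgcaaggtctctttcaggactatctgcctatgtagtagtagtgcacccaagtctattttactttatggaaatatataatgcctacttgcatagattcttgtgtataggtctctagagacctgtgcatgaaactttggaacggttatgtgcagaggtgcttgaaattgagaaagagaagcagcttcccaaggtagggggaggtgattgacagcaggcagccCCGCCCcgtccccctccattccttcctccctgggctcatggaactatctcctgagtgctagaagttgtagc
Col1a2: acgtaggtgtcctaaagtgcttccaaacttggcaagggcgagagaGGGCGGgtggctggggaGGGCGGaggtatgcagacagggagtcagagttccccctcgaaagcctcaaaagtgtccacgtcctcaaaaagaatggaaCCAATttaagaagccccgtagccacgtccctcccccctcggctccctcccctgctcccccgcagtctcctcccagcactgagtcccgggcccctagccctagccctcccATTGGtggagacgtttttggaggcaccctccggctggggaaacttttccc
The Col4a1 and Col4a2 windows share 78 bases, so that part of their capitals mark the same letters read from opposite strands. The Col4a4 window holds none of the 3 motifs. The table held 38 windows of 35 of the 44 members, with a pair of windows each for Col9a1, Col6a2 and Col18a1, and none for Col1a1, Col2a1, Col4a3, Col5a2, Col9a3, Col12a1, Col14a1, Col22a1 and Col26a1. Of the 38 windows 23 (60.5%, in 22 genes) hold GGGCGG, against 35.7% of all 32851 windows. CCAAT is in 13 collagen windows (34.2%, against 37.4% of all) and TATAAA in 5 (13.2%, against 13.6%). A match is a description of letters and not a binding site.

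The values below are counts of unique molecular identifiers (UMIs), summed per mouse within a cell class and expressed per 1000000 gene UMIs of that class and mouse (CPM). A 3′ kit yields 1 tag per molecule whatever the transcript's length, so levels were compared between genes without a length correction. Of 19273 cells, 7452 were assigned to a named mouse (1472, 1652, 2568 and 1760 cells for ko mouse 1, ko mouse 2, wt mouse 3 and wt mouse 4), and 18 classes had at least 10 cells in every mouse. Of these, 15 classes carry a cell type name from markers, with "-like" added, and clusters 3, 5 and 21 stayed unnamed. Cluster 21 (104 cells) was led by Hp, Tagln, Lsp1, Cpe and Akap12, cluster 5 (372 cells) by a mixture of progenitor and early nephron genes (Tmem100, Uncx, Wnt4, Six2), and cluster 3 (527 cells) by Spon1, Fgf8, Epha4 and Sim2. The UMIs of a class in a mouse ranged from 190515 to 8958983. Wt mouse 3 stood apart: it held 172 of the 173 cells of 1 collecting duct-like cluster and 96 of the 98 cells of 1 loop of Henle-like cluster, but only 2 of the 335 cells of the other collecting duct-like cluster. *Trim28* fell in the ko mice in NPC-like cells (log2 difference −1.91, SE 0.33, adjusted p = 0.0126 by edgeR's quasi-likelihood test) and in the early nephron-like class (−2.50, SE 0.16, adjusted p = 0.000538), as the labels say, and was 118, 104, 105 and 129 CPM (TMM-scaled, by edgeR) in stroma-like cells. Free RNA from broken cells also gives UMIs, and a free RNA level was set for each class from the barcodes with 10 to 100 UMIs, scaled by the median ratio of the marker lists of the other cell types.

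Collagen messages were most abundant in stroma-like cells, and the network-forming members made up most of the collagen UMIs of the kidney. Over all assigned cells the 44 members gave 246452 UMIs, of which the 9 network-forming genes gave 56.4%, the 11 fibrillar genes 21.4% and the 2 multiplexins 15.8%. The 9 FACIT genes gave 2.43%, the 6 genes of collagen VI 2.28%, the 4 transmembrane genes 0.813%, Col26a1 with Col28a1 0.821% and Col7a1, the anchoring fibril chain, 0.0605%. In all values that follow the order of the mice is ko mouse 1, ko mouse 2, wt mouse 3, wt mouse 4. Summed collagen CPM was 10441, 8476, 7074 and 5573 in stroma-like cells, 4582, 4894, 4411 and 3702 in mural-like cells, and 4023, 4094, 3654 and 3702 in cluster 21. Every stroma-like value lay above every value of the other 17 classes, although 1 of the 2 stroma-like clusters, described with the genotypes below, stood at the mural-like level. Endothelial-like cells had 2394, 2334, 2703 and 3028 and podocyte-like cells 2885, 2163, 2532 and 2401 CPM, which overlapped. The lowest sums were in immune-like (516 ± 128, SD, n = 4) and erythroid-like cells (400 ± 121, SD, n = 4), where Col4a1 stood at 160 and 129 CPM beside free RNA levels of 111 and 121 CPM at the median ratio.

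**Figure D1:**
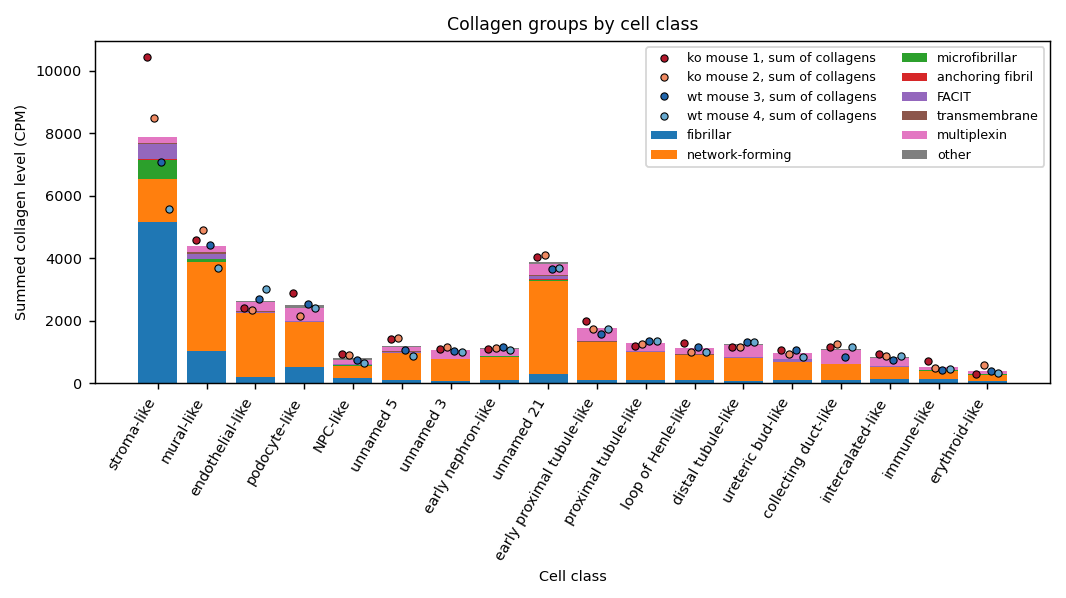
Summed collagen level in CPM (vertical axis) in each of the 18 cell classes (horizontal axis), with stacked bars for the mean of each collagen group over 4 mice and points for the sum in each mouse. The stroma-like bar is mostly fibrillar and reaches 7891 CPM, while the mural-like, cluster 21 and endothelial-like bars are mostly network-forming.

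In all, 36 members had at least 50 UMIs over the assigned cells. The other 8 were Col19a1 with 8 UMIs, Col20a1 with 47, Col28a1 with 4, Col6a6 with 46, Col6a5 with 1, Col6a4 with 22, Col10a1 with 10 and Col22a1 with 23, and no member was at 0. Of the 36, 15 had their highest mean level in stroma-like cells, 6 in mural-like, 5 in podocyte-like, 4 in cluster 21, 3 in NPC-like and 1 each in ureteric bud-like, endothelial-like and intercalated-like cells. Stroma-like and mural-like cells thus held the top level of 21 of 36. For 18 of the 36 the mice of the highest class did not overlap those of the second class, and the order of the first 2 classes of the other 18 was within the spread between mice. The classes were drawn from these same cells, with the 25 collagens among the 3000 variable genes left out of the clustering, so these levels are a description without a test.

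**Figure D2:**
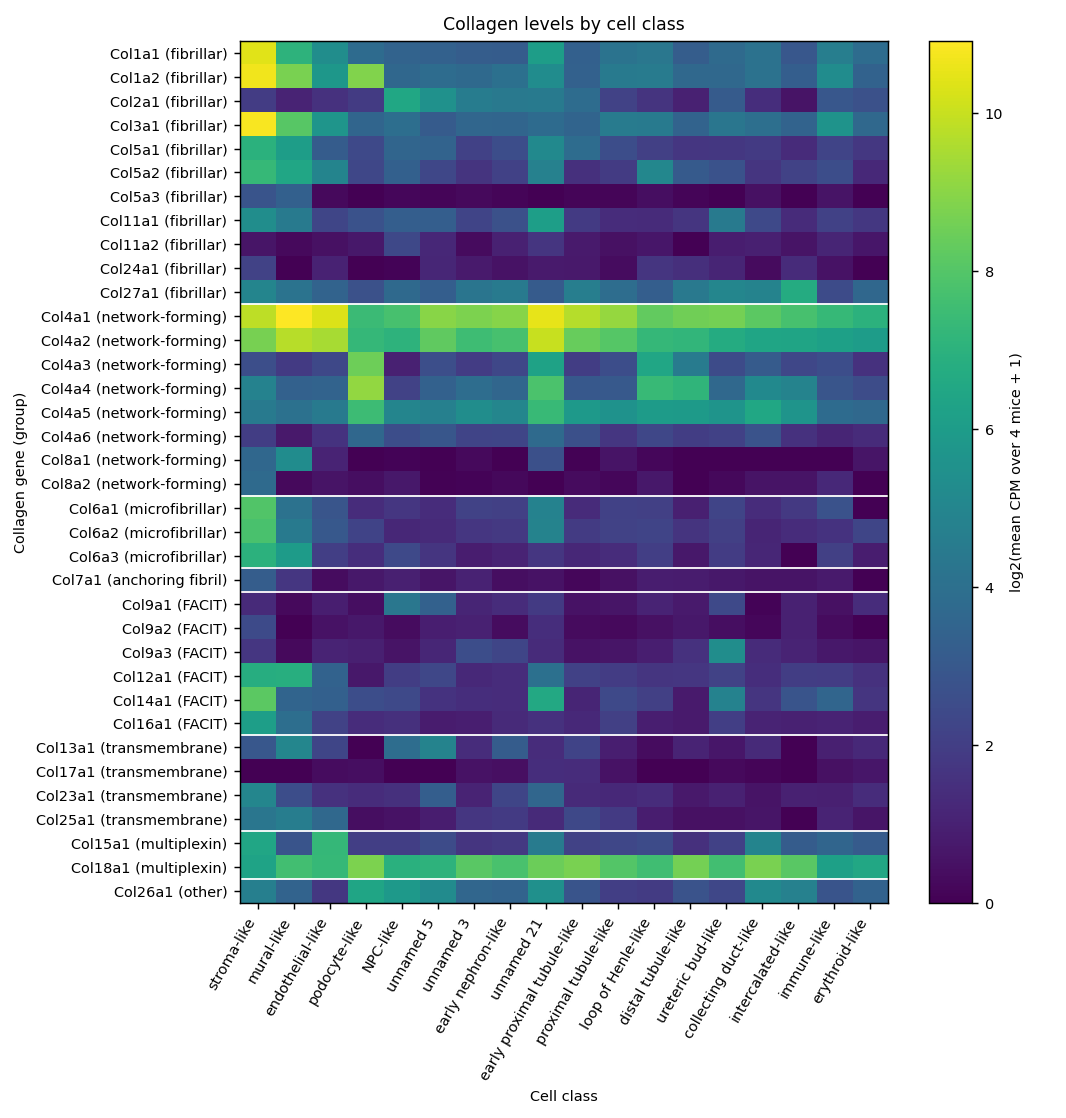
Colour shows log2(mean CPM over 4 mice + 1) of the 36 collagens with at least 50 UMIs (rows, by group) in 18 cell classes (columns). Col1a1, Col1a2, Col3a1, Col6a1, Col6a2 and Col6a3 are brightest in the stroma-like column, Col2a1 and Col11a2 in the NPC-like, Col27a1 in the intercalated-like and Col11a1 in the cluster 21 column, Col4a1, Col4a2 and Col18a1 are bright in nearly every column, and Col4a3, Col4a4 and Col26a1 are brightest in the podocyte-like column.

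Among the fibrillar collagens, the chains of collagens I and III dominated stroma-like cells. Col3a1, the single chain of collagen III, was 2477, 1987, 1468 and 1179 CPM there. Col1a2 was 2225, 1809, 1462 and 1089 CPM, and Col1a1 1982, 1565, 1042 and 844 CPM. In each of these 3 genes both ko mice were above both wt mice, as in 16% of all genes tested in stroma-like cells. The lowest mouse was above every mouse of the second-ranked class. Mural-like cells followed for Col3a1 (268 CPM) and Col1a1 (133, 138, 189 and 71.8 CPM). Col5a2 and Col5a1, the chains of collagen V that enters collagen I fibrils, had the same first 2 classes, at 158 ± 40.0 and 124 ± 23.4 CPM (SD, n = 4) in stroma-like and 86.9 and 66.8 CPM in mural-like cells.

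Podocyte-like cells held Col1a2 with very little Col1a1. Col1a2, their second most abundant collagen, was 487, 462, 418 and 475 CPM in them. That was the second mean level of that gene after stroma-like cells, overlapping the 371, 543, 510 and 279 CPM of mural-like cells. Col1a1 was 14.9, 10.5, 21.7 and 5.22 CPM, below the free RNA level of 31.2 CPM. That level takes the median ratio of 35.3%. At the smallest ratio of 9.53% only wt mouse 4 was below it. Of the podocyte-like cells of the 4 mice, 24 of 29, 13 of 16, 48 of 53 and 30 of 32 had at least 1 UMI of Col1a2, against 5 of 33, 10 of 40, 14 of 69 and 4 of 34 immune-like cells, a type that should lack it. A UMI of Col1a1 was found in 5, 2, 12 and 2 podocyte-like cells, and in 6, 5, 5 and 5 immune-like cells. The median UMIs of a cell were 10619, 10062, 10556 and 9361 in the podocyte-like and 14075, 12839, 13509 and 12184 in the immune-like class of the 4 mice. The ratio of Col1a1 to Col1a2 UMIs was 0.795 in stroma-like and 0.341 in mural-like cells. Over the 13 classes with at least 50 UMIs of both genes, which leave podocyte-like cells out, it ran from that 0.341 to 1.75 in cluster 21. There it rested on 98 and 56 UMIs and was 0.913, 0.7, 1.81 and 5.86 in the 4 mice.

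The fibrillar collagens known from cartilage had other leading classes. Col2a1 was 117, 110, 68.4 and 67.3 CPM in NPC-like cells and 45.4 CPM in cluster 5, which came second. Col27a1 was 102, 105, 109 and 103 CPM in intercalated-like cells, the acid-base cells of the collecting duct, against 31.6 CPM in ureteric bud-like cells, which came next. These 4 intercalated-like values lay within 10 CPM of each other. The class had 85 cells in all and 10 in ko mouse 1, so counting error is wider than that spread and the closeness does not measure precision. Col11a1 led in cluster 21 and is described with the genotypes below. Col11a2, Col5a3 and Col24a1 had 134, 85 and 123 UMIs and had means under 10 CPM in every class.

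Col4a1 and Col4a2, the chains of the ubiquitous basement membrane network, were found in every class, with their highest levels in mural-like cells, cluster 21 and endothelial-like cells. Col4a1 was 2124, 2061, 1730 and 1812 CPM in mural-like cells, 1478, 1391, 1535 and 1480 CPM in cluster 21 and 1153, 1169, 1369 and 1499 CPM in endothelial-like cells. The mural-like values lay above both others, while cluster 21 and endothelial-like cells overlapped. Col4a2 was 1052, 1027, 969 and 1047 CPM in cluster 21, 974, 975, 735 and 715 CPM in mural-like cells and 617, 617, 768 and 834 CPM in endothelial-like cells, so that the order of its 2 first classes was the reverse of that of Col4a1, with overlap. In stroma-like cells Col4a1 was 1073, 819, 997 and 785 CPM and Col4a2 458, 396, 416 and 357 CPM.

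Along the nephron, Col4a1 was highest in early proximal tubule-like cells (964, 773, 741 and 816 CPM) and lower in proximal tubule-like cells (571, 584, 558 and 636 CPM), without overlap. Cluster 5 had 582, 618, 440 and 362 CPM, early nephron-like cells 463, 472, 547 and 487 CPM and cluster 3 422, 448, 449 and 407 CPM. The distal and ureteric classes were lower again, with 368, 401, 438 and 359 CPM in ureteric bud-like, 360, 356, 445 and 352 in distal tubule-like, 274, 278, 415 and 288 for loop of Henle-like and 308, 318, 212 and 309 CPM in collecting duct-like cells. NPC-like cells had 234, 235, 218 and 166 CPM and intercalated-like cells 196, 250, 162 and 239 CPM. Podocyte-like cells, at 160, 163, 196 and 177 CPM, had the lowest mean of the nephron classes, overlapping NPC-like and intercalated-like cells. Immune-like cells had 184, 129, 166 and 160 CPM and erythroid-like cells 88.4, 183, 124 and 119 CPM, close to their free RNA levels at the median ratio. At the smallest ratio (14.8% in immune-like and 7.18% in erythroid-like cells) every mouse was well above the level.

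Col4a2 followed Col4a1 at a lower level in each class. It was 383, 328, 284 and 324 CPM in early proximal tubule-like, 236, 255, 259 and 295 in proximal tubule-like, 345, 379, 280 and 199 in cluster 5 and 198, 208, 227 and 220 CPM in early nephron-like cells. Cluster 3 had 172, 191, 182 and 193 CPM, distal tubule-like cells 118, 147, 171 and 147 CPM, NPC-like cells 158, 120, 148 and 111 CPM and podocyte-like cells 155, 137, 141 and 177 CPM. Loop of Henle-like cells followed with 134, 128, 214 and 136 CPM (wt mouse 3 had 140 CPM in cluster 9, which all mice share, and 284 CPM in cluster 22, which is nearly all its own), ureteric bud-like with 105, 105, 119 and 89.2, collecting duct-like with 87.6, 91.6, 84.5 and 74.9 and intercalated-like with 43.1, 78.6, 99 and 103 CPM. Immune-like cells had 77.6, 51.4, 85.0 and 79.7 CPM and erythroid-like cells 23.8, 117, 56.6 and 62.7 CPM. The ratio of Col4a1 to Col4a2 UMIs, of genes read from the overlapping starts printed above, was above 1 in each of the 18 classes, lowest in podocyte-like cells (1.19) and highest in ureteric bud-like cells (3.76). Over the mice of a class it ran from 3.51 to 4.02 in ureteric bud-like and from 1.35 to 1.58 in cluster 21. In intercalated-like cells, which gave 149 UMIs of Col4a2 in all, it ran from 1.63 to 4.55, so that the spread between the mice of that class was wide.

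**Figure D3:**
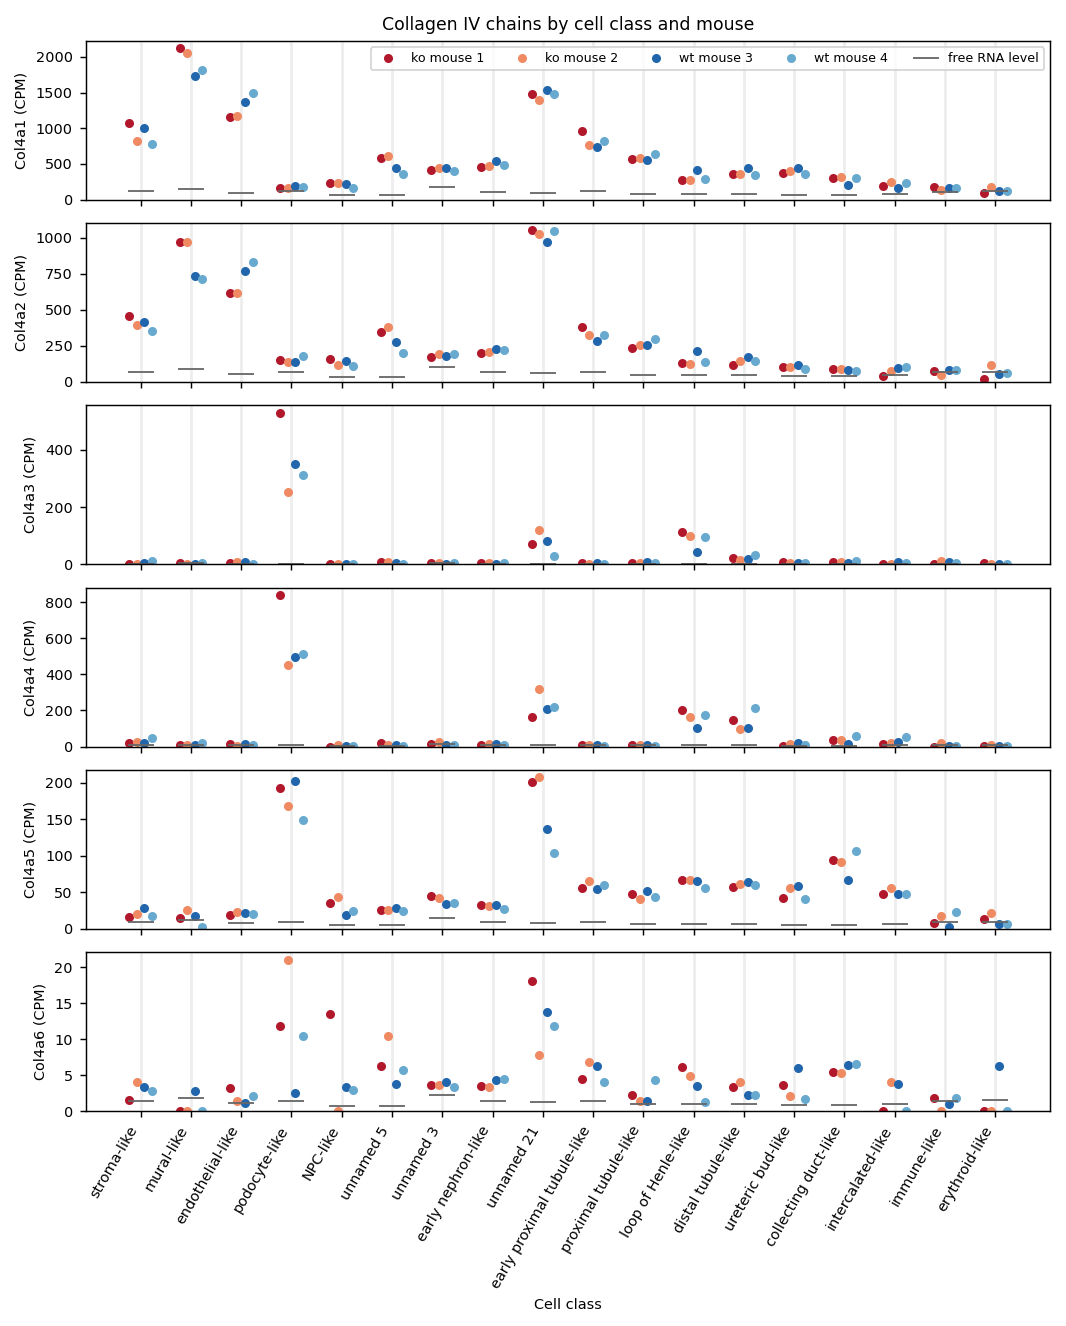
Level in CPM (vertical axes, a panel per chain) of the 6 collagen IV chains in 18 cell classes (horizontal axis), with a point for each mouse and a grey bar for the free RNA level of that class. Col4a1 and Col4a2 are above the bar in most classes and highest in mural-like cells and cluster 21, while Col4a3 and Col4a4 stand out in podocyte-like cells and, lower, in loop of Henle-like cells and cluster 21.

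The chains of the mature glomerular basement membrane were highest in podocyte-like cells. Col4a4 was 838, 451, 494 and 512 CPM there, the most abundant collagen of the class, and Col4a3 was 529, 252, 350 and 313 CPM. Col4a5 was 193, 168, 203 and 149 CPM in podocyte-like cells and 201, 207, 136 and 104 CPM in cluster 21, which overlapped. Levels in ko mouse 2 rest on 16 podocyte-like cells, and for Col4a3 and Col4a4 ko mouse 1 was the highest and ko mouse 2 the lowest of the 4.

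Col4a4 was also present outside podocyte-like cells. It was 162, 320, 210 and 217 CPM in cluster 21. The loop of Henle-like class had 205, 163, 103 and 174 CPM and the distal tubule-like class 149, 95.6, 104 and 216 CPM, and the 3 overlapped each other. The low loop of Henle-like value is that of wt mouse 3, which had 203 CPM in cluster 9, shared by all mice, and 8.38 CPM in cluster 22, with 96 of its 98 cells from that mouse. Collecting duct-like cells had 33.7, 37.1, 14.5 and 57.8 CPM, and the remaining 13 classes ranged in their means from 3.41 CPM in NPC-like to 28.3 CPM in intercalated-like cells. Col4a3 was 114, 100, 42.6 and 95.7 CPM in the loop of Henle-like class (83.9 CPM in wt mouse 3 in cluster 9), 72.1, 121, 82.8 and 29.7 CPM in cluster 21 and 21.7, 14.5, 18.4 and 33.7 CPM in distal tubule-like cells. The ratio of Col4a3 to Col4a4 UMIs, whose starts lie 71 bases apart, was 0.652 in podocyte-like and 0.158 in distal tubule-like cells, the extremes of the 7 classes with enough UMIs. In distal tubule-like cells it lay between 0.145 and 0.176 in the 4 mice and in podocyte-like cells between 0.558 and 0.709, without overlap.

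Col4a5 was found widely, at 93.5, 90.9, 66.4 and 106 CPM in collecting duct-like and 67.3, 66.7, 64.8 and 55.4 CPM in the loop of Henle-like class, with means down to 11.9 CPM in erythroid-like cells. Col4a6, its neighbour on the X chromosome, was low: its highest levels were 18, 7.81, 13.8 and 11.9 CPM in cluster 21 and 11.9, 20.996, 2.55 and 10.4 CPM in podocyte-like cells, which overlapped. Col4a5 exceeded Col4a6 by 7.72 to 20.3 times in the 4 classes with enough UMIs. Of the other network-forming members, Col8a1, a collagen of vessel walls, was 21.6, 60.4, 24.6 and 48.8 CPM in mural-like cells, and Col8a2 was 12.7 CPM in stroma-like cells and at most 1.42 CPM on average elsewhere.

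Collagen VI had its highest levels in stroma-like cells. Col6a1 was 351, 257, 232 and 160 CPM there and Col6a2 305, 229, 199 and 142 CPM, against means of 27.3 and 28.5 CPM in cluster 21, their second class. Col6a3, the third chain of the common trimer, was 158, 133, 115 and 114 CPM in stroma-like and 58.7, 73.3, 65.5 and 54.6 CPM in mural-like cells, where Col6a1 was only 6.18, 25.9, 19.1 and 14.4 CPM. The Col6a1 and Col6a2 genes lie 85161 bases apart on chromosome 10, and the ratio of their UMIs was 1.15 in stroma-like cells (1.12 to 1.16 over the mice). The chains that can replace Col6a3 were scarce: over the assigned cells Col6a4 had 22, Col6a6 46 and Col6a5 1 UMI, and in stroma-like cells the mice had Col6a4 at 1.58, 4.88, 1.24 and 0.562 CPM and Col6a6 at 3.15, 0, 1.24 and 0 CPM.

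The fibril-associated FACIT collagens split between stroma and other classes. Col14a1 was 376, 315, 272 and 200 CPM in stroma-like cells and 123, 97.7, 50 and 107 CPM in cluster 21. Col12a1 was 112 CPM in both mural-like (SD 30.8, n = 4) and stroma-like cells (SD 23.8), and Col16a1 75.6, 90.2, 59.9 and 45.5 CPM in stroma-like cells. The chains of collagen IX, the partner of collagen II in cartilage, parted: Col9a1 was highest in NPC-like cells (13.5, 23.5, 20.3 and 19.4 CPM) and Col9a3 in ureteric bud-like cells (57.1, 27.4, 30.4 and 42.9 CPM), with 5.03 CPM in the second class of Col9a3. Col9a2 had 89 UMIs and at most 4.43 CPM.

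Of the multiplexins, Col18a1 had its highest mean levels in epithelial classes and was also present in mural-like cells (223, 237, 239 and 77.5 CPM). It was 478, 461, 290 and 468 CPM in collecting duct-like cells, 391, 412, 396 and 409 in distal tubule-like, 450, 431, 371 and 420 in early proximal tubule-like and 383, 331, 567 and 436 CPM in podocyte-like cells, so that the first 4 classes overlapped. In collecting duct-like, distal tubule-like and intercalated-like cells (415, 268, 190 and 233 CPM) it had the highest mean of all collagens, above Col4a1. The low collecting duct-like value was that of wt mouse 3, whose cells of that class came from another cluster than those of the other mice. Further classes had 304, 422, 357 and 311 CPM (cluster 21), 304, 339, 241 and 236 (cluster 3), 225, 250, 240 and 289 (proximal tubule-like), 239, 255, 201 and 177 (early nephron-like), 186, 188, 229 and 167 (ureteric bud-like) and 211, 172, 214 and 154 CPM (loop of Henle-like). NPC-like cells had 144, 170, 89.5 and 84.1 CPM, cluster 5 had 173, 156, 107 and 92.6 CPM, endothelial-like cells 164, 169, 125 and 168 CPM, and stroma-like cells 80.4 ± 7.15 CPM (SD, n = 4). The immune-like (56.8, 72.3, 76.4 and 81.5 CPM) and erythroid-like values (74.8, 141, 90.2 and 64.9 CPM) were near their free RNA levels of 65.2 and 70.9 CPM at the median ratio. They were above the levels at the smallest ratio (14.8 and 7.18%). Col15a1, the other multiplexin, was 143, 157, 129 and 177 CPM in endothelial-like cells and 153, 117, 56.2 and 21.9 CPM in stroma-like cells.

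The transmembrane collagens were low. Col13a1 was 43.3, 30.2, 41.0 and 11.5 CPM in mural-like cells and 28.3 CPM in cluster 5, Col25a1 9.28, 56.1, 19.1 and 11.5 CPM in mural-like cells, and Col23a1 59.9, 33.3, 27.2 and 4.50 CPM in stroma-like cells. Col17a1, the hemidesmosomal collagen, had 54 UMIs. Col7a1 was 8.40 CPM in stroma-like cells. Col26a1 was 83.2, 84.0, 79.0 and 93.9 CPM in podocyte-like and 72.0, 56.8, 53.2 and 45.6 CPM in NPC-like cells, without overlap.

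Between genotypes, 1 of 252 tests of a collagen in a class passed an adjusted p of 0.05 (edgeR's quasi-likelihood test on the sums of the 4 mice, Benjamini-Hochberg over all genes of the class), and it was a rise of Col11a1 in cluster 21. Over all genes and classes 0.369% of the tests passed, 587 of 158950. The 252 tests covered 31 of the 44 members, and the other 13 had too few UMIs in each class. At an unadjusted p under 0.05 there were 46 of the 252, against 7.2% of all tests. Values beside these tests are CPM scaled by edgeR's TMM factors.

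Col11a1, the minor fibrillar chain, was 142 and 126 TMM-scaled CPM in the ko mice and 15.6 and 13 in the wt mice in cluster 21. Both ko mice lay far above both wt mice, with a log2 difference of 3.17 (SE 0.40, adjusted p = 0.0029), and 0.399% of all genes tested in that cluster passed. The values rested on 44, 30, 8 and 4 UMIs, found in 20 of 27, 11 of 18, 7 of 36 and 4 of 23 cells, with at most 7 UMIs in a cell. Col11a1 passed the filter on low counts in cluster 21 through its level in the ko mice alone. The call is therefore not independent of that level. Immune-like cells with a UMI of Col11a1 numbered 2 of 33, 1 of 40, 2 of 69 and 0 of 34, at median depths of 14075, 12839, 13509 and 12184 UMIs a cell against 11106, 11523, 13331 and 12114 in cluster 21. In stroma-like cells Col11a1 was 42.4, 41.6, 40.8 and 36.3 TMM-scaled CPM, with the ko mice just above the wt mice and a log2 difference of 0.12 (SE 0.23, adjusted p = 0.97). In mural-like cells it was 15.5, 12.9, 28.2 and 28.7 CPM unscaled, with the ko mice below, and was not tested. The rise stayed at a log2 difference of 3.07 to 3.32 with each mouse left out in turn, in fits that leave a lone mouse in 1 genotype. It did not pass in the 4 regroupings of cells that placed 96 to 103 of the 104 cells of the cluster within an early nephron-like class of 1020 to 1528 cells, where the log2 difference was 1.5 to 2.0 (adjusted p of 0.080 to 0.132). *Trim28* was 42, 16.8, 117 and 104 TMM-scaled CPM in cluster 21.

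**Figure D4:**
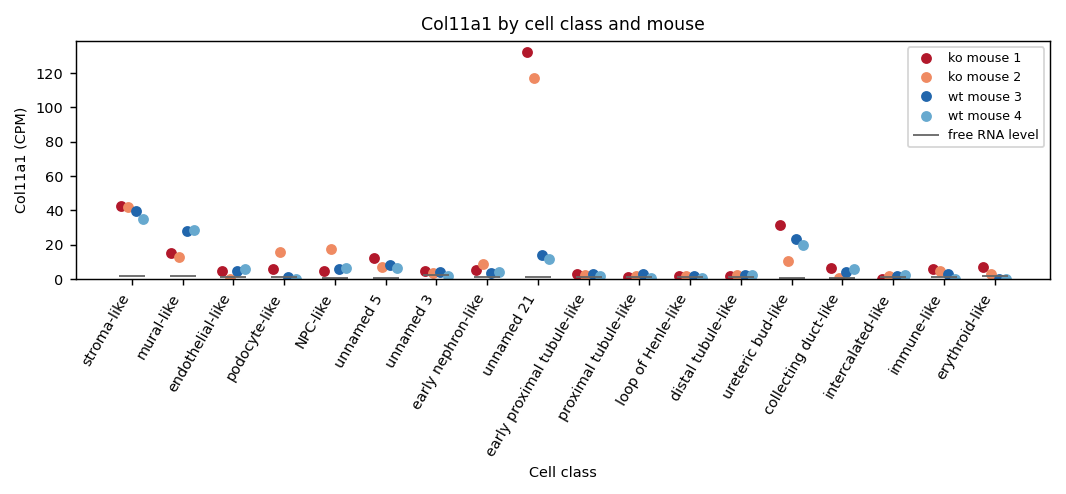
Level of Col11a1 in CPM (vertical axis) in 18 cell classes (horizontal axis), with a point per mouse and a grey bar for the free RNA level. The 2 ko mice stand at 132 and 117 CPM in cluster 21, above every other class, and the 2 wt mice at 13.8 and 11.9 CPM there, below the stroma-like points.

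The chains Col4a5 and Col1a2 had an unadjusted p under 0.05 in cluster 21 (7.66% of all genes had), both higher in the ko mice. Col4a5 was 217 and 222 against 154 and 114 TMM-scaled CPM (log2 0.69, SE 0.27, adjusted p = 0.547), and Col1a2 74.4 and 41.9 against 31.2 and 22.8 (log2 1.09, SE 0.45, adjusted p = 0.599). Of the 13 collagens tested there, 10 were higher and 3 lower in the ko mice, with a median log2 difference of 0.52, against −0.01 over all 5508 genes tested.

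In stroma-like cells, which keep *Trim28*, no collagen of 25 tested passed, and no gene of 10124 passed either (0% of all). Of the 25, 13 had an unadjusted p under 0.05, against 6.87% of all genes tested, with 11 higher and 2 lower in the ko mice (2.62% and 4.26% of all genes). Both ko mice were above both wt mice in 13 of the 25, against 16% of all genes, and below in 2, against 19.1%. The median log2 difference of the 25 was 0.30, and of all genes −0.02. Without ko mouse 1 that median was 0.12 over 30 collagens, 5 of them with an unadjusted p under 0.05. The summed collagen level was 1.496 times higher in the ko mice, which did not overlap the wt mice, and the exact permutation test (two-sided) gave p = 0.333, the smallest that 2 against 2 mice allow. Such a separation was not particular to stroma-like cells. Sums were higher without overlap also in cluster 5 (1.46 times), immune-like (1.39), NPC-like (1.31), mural-like (1.17), intercalated-like cells (1.14), cluster 3 (1.11) and cluster 21 (1.10). They were lower without overlap in endothelial-like (0.825), distal tubule-like (0.889) and proximal tubule-like cells (0.896).

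The fibrillar chains, collagen VI and Col15a1 lay on the higher side. Col1a1 was 1976 and 1540 against 1074 and 878 TMM-scaled CPM, a log2 difference of 0.85 (SE 0.14, adjusted p = 0.286). Col3a1 was 2469 and 1955 against 1515 and 1226 (log2 0.69, SE 0.14, adjusted p = 0.356), and Col1a2 2218 and 1780 against 1508 and 1133 (log2 0.60, SE 0.15, adjusted p = 0.477). The ko mice were above the wt mice in these 3, and for Col1a1 the gap between the genotypes was wider than the gap between the 2 ko mice. Col15a1 had the largest difference upward, 152 and 115 against 58.0 and 22.8 (log2 1.68, SE 0.37, adjusted p = 0.394). Col6a1 and Col6a2 differed by 0.57 and 0.58, Col5a2 by 0.50, Col14a1 by 0.48, Col16a1 by 0.58, Col5a1 by 0.39 and Col23a1 by 1.37 on the log2 scale, with adjusted p between 0.627 and 0.723. With a mouse left out Col23a1 ran from 0.72 (without wt mouse 4) to 3.31 (without wt mouse 3), Col6a1 from 0.31 (without ko mouse 1) to 0.89 (without wt mouse 3) and Col8a1 from −3.58 (without ko mouse 2) to −1.60 (without ko mouse 1). Col8a1 had the largest difference downward, 1.57 and 6.4 against 16.2 and 23.4 (log2 −2.27, SE 0.53, adjusted p = 0.409). That gene had only 57 UMIs in cluster 6 and 44 in cluster 14 over the 4 mice, so its ko values were near the floor. Of the 5 lower collagens, Col12a1 was the other one at an unadjusted p under 0.05 (log2 −0.51, SE 0.19, adjusted p = 0.647). The basement membrane members Col4a1, Col4a2 and Col18a1 had log2 differences of 0.02, 0.08 and 0.02 (SE 0.16, 0.14 and 0.20), and their sign changed between alternatives and between the clusters of the class. Col4a1 differed by 0.36 (SE 0.21) within cluster 6 and by −0.50 (SE 0.17, adjusted p = 0.589) within cluster 14.

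DESeq2 on the same sums called Col15a1 (adjusted p = 0.0103) and Col1a1 (adjusted p = 0.0148) in stroma-like cells, where 0.196% of all genes passed. Without a filter on low counts edgeR called 6 of 40 collagens in these cells, in a setting where 1.52% of all tests over the classes passed. With wt mouse 3 left out, edgeR called Col1a1 (log2 1.03), Col1a2 (0.85), Col3a1 (0.88), Col15a1 (2.57) and Col8a1 (−2.51), and with wt mouse 4 left out it called them at 0.71, 0.40, 0.54, 1.2 and −2.02, each time against a lone wt mouse. In all 12 of 27 collagens passed without wt mouse 3, where 3.79% of all genes did, and 7 of 27 without wt mouse 4, where 9.55% did. By edgeR 0 of 30 passed without ko mouse 1 and 0 of 30 without ko mouse 2, with 5 and 9 at an unadjusted p under 0.05. The stroma-like class joined cluster 6, led by Dcn, Penk and collagen genes, and cluster 14, led by Pdgfrb, Gucy1a1 and Kcnj8. Cluster 14, with 173 of the 537 cells, had as many mural markers (Pdgfrb and Kcnj8) as stromal ones (Pdgfra and Penk) among its 10 leading genes, and its name rests on its mean marker score (1.38 for stroma, 0.92 for mural). Cluster 6 made up 75.5 and 74.2% of the stroma-like cells of the ko mice and 61.3 and 69.4% of those of the wt mice, and it held more collagen than cluster 14 (12274, 10824, 10167 and 7270 against 6594, 4122, 4238 and 3404 CPM in all). The values of cluster 14 overlapped those of mural-like cells. In cluster 6 alone the summed level was 1.32 times higher in the ko mice, and 5 of 25 collagens had an unadjusted p under 0.05 (3 higher, 2 lower), against 5.01% of all genes. In cluster 14 alone it was 1.40 times higher, with overlapping mice, and 9 of 21 collagens had such a p (8 higher, 1 lower), against 6.13% of all genes. The part of this share in the differences was not tested as a cause, but the directions within each cluster are measured. Within cluster 6 the log2 difference of Col1a1 was 0.53, of Col3a1 0.41, of Col15a1 1.27 and of Col6a1 0.21, and within cluster 14 1.10, 0.90, 2.24 and 1.02. No adjusted p of these 8 was under 0.149.

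**Figure D5:**
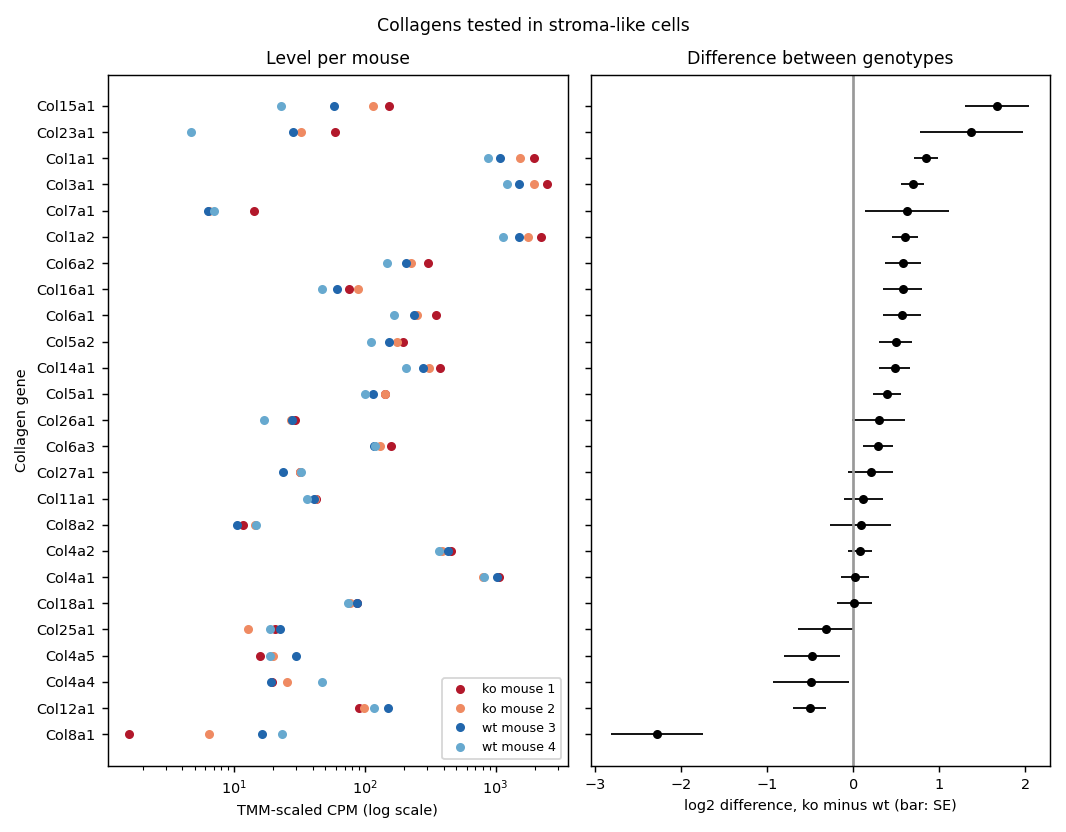
The 25 collagens tested in stroma-like cells (vertical axis, ordered by difference), with the TMM-scaled CPM of each mouse on a log axis (left) and the log2 difference between ko and wt mice with its SE (right). In all, 20 genes lie above 0, with Col15a1 at the upper end at 1.68, and Col8a1 lies at the lower end at −2.27.

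In endothelial-like cells the differences in collagen IV were downward. Col4a1 was 1152 and 1145 against 1443 and 1496 TMM-scaled CPM (log2 −0.36, SE 0.14, adjusted p = 0.793) and Col4a2 617 and 604 against 809 and 832 (log2 −0.43, SE 0.14, adjusted p = 0.779). Neither pair of genotypes overlapped (both ko mice were below both wt mice in 16.8% of all genes), and no gene of 10957 passed in this class (0% of all). Col1a2 was lower (log2 −0.86) and Col5a2 higher (log2 0.76) at an unadjusted p under 0.05, as were 6.22% of all genes. Of the 20 collagens tested, 14 were lower in the ko mice, with a median of −0.28, against −0.01 for all genes. Without wt mouse 4 both chains passed, at −0.32 (adjusted p = 0.0255) and −0.40 (adjusted p = 0.0078), against a lone wt mouse, where 12.9% of all genes passed. By edgeR no collagen passed without ko mouse 1 (0 of 21), ko mouse 2 (0 of 22) or wt mouse 3 (0 of 19), with 5, 1 and 6 at an unadjusted p under 0.05. The class joined cluster 4 and cluster 24 (79 cells), which held less Col4a1 (527 against 1373 CPM) and made up 19.2 and 19.5% of the class in the ko mice and 4.20 and 13.9% in the wt mice. Within cluster 4 the log2 difference was −0.25 for Col4a1 (adjusted p = 0.921), −0.35 for Col4a2 (adjusted p = 0.872), −0.73 for Col1a2 and −0.04 for Col5a2, and 3 of 18 collagens had an unadjusted p under 0.05, against 5.65% of all genes. Cluster 24 had 6 cells in wt mouse 3 and was not tested. Mural-like cells differed the other way in Col4a2 (1069 and 1029 against 832 and 778, log2 0.38, SE 0.15, adjusted p = 0.958), where 4.85% of all genes had an unadjusted p under 0.05.

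In NPC-like cells and cluster 5 no collagen passed between genotypes, and the lowest unadjusted p were those of basement membrane members in cluster 5 and of Col18a1 in NPC-like cells. In cluster 5 Col4a1 was 564 and 600 against 461 and 382 TMM-scaled CPM (log2 0.47, SE 0.13, adjusted p = 0.178), Col4a2 differed by 0.48 (adjusted p = 0.384) and Col18a1 by 0.61 (adjusted p = 0.194). The ko and wt mice did not overlap for any of the 3, against 18.8% of all genes with both ko mice above, and without wt mouse 3 all 3 passed, Col4a1 at 0.61, Col4a2 at 0.75 and Col18a1 at 0.71, in a fit where 4.74% of all genes did. By edgeR no collagen passed in cluster 5 without ko mouse 1 (0 of 21), ko mouse 2 (0 of 21) or wt mouse 4 (0 of 16), with 2, 3 and 3 at an unadjusted p under 0.05, and without wt mouse 4 the differences of these 3 were 0.32, 0.25 and 0.50. Of the 19 collagens tested there, 5 had an unadjusted p under 0.05, all upward, against 8.95% of all genes in both directions and 4.2% upward. In NPC-like cells Col18a1 was 140 and 169 against 97.0 and 89.9 (log2 0.75, SE 0.24, adjusted p = 0.266) and Col2a1 114 and 109 against 74.1 and 72.0 (log2 0.60, SE 0.27, adjusted p = 0.628), while Col13a1 was lower (13.2 and 3.87 against 23.8 and 18.2, log2 −1.56, adjusted p = 0.552), the 3 of 13 collagens with an unadjusted p under 0.05, which 7.24% of all genes had. Without wt mouse 3 Col18a1 passed in NPC-like cells at 0.81 (adjusted p = 0.0090), where 3.48% of all genes did. By edgeR no collagen passed there without ko mouse 1 (0 of 14), ko mouse 2 (0 of 15) or wt mouse 4 (0 of 8), with 2, 0 and 3 at an unadjusted p under 0.05, and Col18a1 was lowest without ko mouse 2, at 0.55 (adjusted p = 0.904). Col13a1 ran from −2.41 without ko mouse 1 to −0.68 without ko mouse 2. It was −0.058 at a resolution of 0.4, where the NPC-like class was another set of 989 cells that took in 369 of the 372 cells of cluster 5. The log2 differences of Col4a1 and Col4a2 in NPC-like cells were 0.17 (SE 0.22) and −0.06 (SE 0.26), with overlapping mice. NPC-like cells numbered 16 and 34 in the ko mice and 79 and 208 in the wt mice. Col18a1 was higher also in cluster 3 (log2 0.39, adjusted p = 0.193) (10.4% of all genes had an unadjusted p under 0.05) and early nephron-like cells (log2 0.38, adjusted p = 0.539, 6.33% of all genes), and Col26a1 in cluster 3 was 15.5 and 15.8 against 6.80 and 6.94 (log2 1.18, SE 0.30, adjusted p = 0.147). Col18a1 passed in cluster 3 without wt mouse 3 (0.42, where 4.58% of all genes did) and without wt mouse 4 (0.38, where 11.2% did), but not without ko mouse 1 (adjusted p = 0.668) or ko mouse 2 (adjusted p = 0.999). Among the fits with a mouse left out Col26a1 passed there only without wt mouse 4 (1.19), and over all alternatives it passed in 2. In early nephron-like cells Col18a1 passed without wt mouse 3 (0.48, where 4.82% of all genes did) and without wt mouse 4 (0.29, where 18.4% did), but not without a ko mouse.

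In proximal tubule-like cells 23 of the 24 collagens tested were lower in the ko mice, none at an unadjusted p under 0.05, where 11.7% of all genes had one and 0.813% passed. The median log2 difference was −0.56, against 0.00 for all genes. Part of these differences turned without wt mouse 3, after which 11 of 25 collagens were lower and the median was 0.43. Col1a1 was 11 and 13.3 against 36.3 and 6.13 TMM-scaled CPM, and without wt mouse 3 the differences of Col1a1, Col1a2 and Col3a1 were 0.98, 1.12 and 1.12 (adjusted p of 0.0191, 0.000822 and 0.000516, with 5.14% of all genes passing), while without wt mouse 4 they were −1.58, −1.56 and −1.54 and passed as well (adjusted p of 4.4e-15, 5.1e-18 and 3.6e-18, with 9 of 26 collagens and 17.2% of all genes passing). By edgeR 0 of 25 collagens passed without ko mouse 1 and 0 of 25 without ko mouse 2, with 0 and 3 at an unadjusted p under 0.05. Col4a1, Col4a2 and Col18a1 stayed lower without wt mouse 3, at −0.12, −0.25 and −0.26. Of the 120 cells of cluster 20, a proximal tubule-like cluster with Col3a1 at 133 CPM, against 13.9 in the other one, 68 were from wt mouse 3. In podocyte-like cells none of 8 collagens tested had an unadjusted p under 0.05 (6.88% of all genes had), with Col4a3, Col4a4 and Col4a5 among them. In immune-like cells Col1a1, Col1a2 and Col3a1 had log2 differences of 2.24, 1.95 and 2.70 (adjusted p of 0.503, 0.260 and 0.568, where 4.92% of all genes had an unadjusted p under 0.05), and 1 cell of ko mouse 1 held 23 of its 28 UMIs of Col1a1 and 1 cell 32 of its 38 UMIs of Col1a2. Col3a1 was 117, 45.0, 3.82 and 23.6 CPM in the immune-like cells of the 4 mice, against a free RNA level of 22.3 CPM, Col1a2 72.0, 53.0, 16.2 and 12.7 against 27.9, and Col1a1 53.0, 27.3, 5.73 and 10.9 against 30.2. Both ko mice were thus above the free RNA level for Col3a1 and Col1a2, ko mouse 1 alone was for Col1a1, and wt mouse 4 was just above it for Col3a1. These levels take the median ratio of 34.2%. At the smallest ratio of 14.8% ko mouse 2 was above the level for Col1a1 too, both wt mice were for Col1a2, and wt mouse 4 was further above it for Col3a1. Without wt mouse 4 these 3 genes passed, at 2.56, 1.73 and 4.13 for Col1a1, Col1a2 and Col3a1, where 6.59% of all genes did, and with any other mouse left out none did by edgeR, with 4, 4 and 3 collagens at an unadjusted p under 0.05 without ko mouse 1, ko mouse 2 and wt mouse 3.

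The genotype difference itself was compared between classes, with the mouse as a block. Between stroma-like cells and proximal tubule-like cells, in which *Trim28* fell (log2 −1.53, adjusted p = 0.00604), none of 32 collagens differed at an adjusted p of 0.05 (10 at an unadjusted p under 0.05 by edgeR, against 0.299% and 8.57% of all genes), and the smallest adjusted p was that of Col15a1 (log2 2.13, adjusted p = 0.0753). Between stroma-like and NPC-like cells none of 27 did (5 at an unadjusted p under 0.05, against 0.484% and 7.04%).

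Of the genes that act on collagens, 1 rose in the ko mice in 1 class. Their 5 lists (71 genes) cover modification in the endoplasmic reticulum, cleavage and crosslinking, receptors, degradation, and basement membrane partners of collagen IV. Their highest level was in stroma-like or mural-like cells for 6 of 20, 4 of 10, 5 of 9, 4 of 13 and 2 of 14 genes with at least 50 UMIs. In the endoplasmic reticulum list, Serpinh1, the collagen chaperone, was highest in stroma-like cells (650, 655, 675 and 675 TMM-scaled CPM). Ppib, a prolyl isomerase, was 877, 844, 769 and 837 in distal tubule-like cells and P4hb, a subunit of prolyl hydroxylase, 365, 365, 401 and 412 in proximal tubule-like cells. Of the 10 crosslinking and cleavage genes counted, 4 were highest in stroma-like cells, 3 in cluster 21, 2 in podocyte-like and 1 in endothelial-like cells. In podocyte-like cells Loxl2, a lysyl oxidase, was 567, 507, 570 and 509 and Pcolce, an enhancer of procollagen cleavage, 371, 225, 341 and 448 TMM-scaled CPM. Loxl1, another lysyl oxidase, was 149, 117, 130 and 147 in cluster 21.

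Of the receptors, the integrin chain Itgb1 was 985, 1070, 1070 and 1062 and its partner Itga1 336, 464, 347 and 334 TMM-scaled CPM in mural-like cells, and the kinase Ddr1 109, 62.0, 123 and 129 in podocyte-like cells. Of the basement membrane partners, the laminin chain Lamb1 was 525, 511, 749 and 506 in loop of Henle-like cells, nidogen Nid1 353, 237, 386 and 309 in mural-like cells and the laminin chain Lamc1 245, 247, 258 and 288 in endothelial-like cells. None of these genes passed between genotypes in those classes. Of 673 tests of list genes in a class 1 passed (0.369% of all tests), and 89 had an unadjusted p under 0.05 (7.2% of all tests). The gene was Timp3, an inhibitor of metalloproteinases bound to the matrix, in cluster 5, where it was 109 and 110 in the ko mice and 52.6 and 33.6 TMM-scaled CPM in the wt mice (log2 1.36, SE 0.25, adjusted p = 0.0266, with 1.55% of all genes passing in that cluster). It did not pass without ko mouse 1 (log2 1.36) or ko mouse 2 (1.34), or at resolutions of 0.4 (1.22, adjusted p = 0.0786) and 1.2 (1.2, adjusted p = 0.0572). At these resolutions the cells of cluster 5 lay within NPC-like classes of 989 and 716 cells.

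By list, 0 of 276 tests of endoplasmic reticulum genes passed by edgeR, with 6 higher and 28 lower in the ko mice at an unadjusted p under 0.05, where all genes had 3.34% higher and 3.86% lower. Cleavage and crosslinking had 2 higher and 7 lower of 75, receptors 5 and 1 of 64, degradation 9 and 8 of 82 and basement membrane partners 10 and 13 of 176. Within endothelial-like cluster 4 the endoplasmic reticulum genes lower at that p were P4ha1 (73.7, 73.5, 208 and 70.7 TMM-scaled CPM), Plod1 (79.1, 70.8, 202 and 87.8) and Plod2 (52.3, 47.4, 108 and 52.1). Wt mouse 3 stood far above the other mice in each. Its part in the counts by list was not tested. In stroma-like cells, where 2.62% of all genes were higher and 4.26% lower at that p, the list genes at an unadjusted p under 0.05 were Creb3l1, a transcription factor of secretory cells (42.4 and 48.0 against 23.2 and 17.5 TMM-scaled CPM, log2 1.12, adjusted p = 0.394), Timp2 (log2 0.62), the gelatinase Mmp2 (log2 0.45) and Ctsk (log2 0.70), all higher in the ko mice. The collagen receptor chain Itga1 (log2 −0.56), Lama4 (log2 −0.58) and the protease Fap (log2 −1.14) were lower, and none of these 7 had an adjusted p under 0.394. Serpinh1, with its log2 difference of −0.05 (SE 0.10), stood in stroma-like cells beside the 7 fibrillar chains tested there, with differences of 0.12 (Col11a1) and 0.20 (Col27a1) to 0.85 (Col1a1).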

How the data were processed

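The authors deposited, for 1 pool of tagged cells with 4 named mice, counts of UMIs per barcode for 32285 genes and 12 multiplexing tags in 3921239 barcodes (550538685 gene UMIs), without normalization. The submitters' processing notes name Cell Ranger 6.0.0, R 4.1.0, Seurat 4.0 and the builds GRCm38 and mm10, while the matrix header names version 4 of its software. Barcodes were taken as cells above the minimum of 6890 UMIs that the order-of-magnitude rule gives for 24000 expected cells, if they held 200 or more genes and no more than 10% of mitochondrial UMIs. Mice were assigned with HTODemux (k-means) of Seurat 5.3.0 at a quantile of 0.99 in R 4.3.3. Cells with several tags (5130), no tag (2326) or a tag that the list does not name (4365) were left out, and doublets within a mouse were not removed. Clusters came from SCTransform (sctransform 0.4.2), 30 principal components and Louvain clustering at a resolution of 0.8, without collagens, and were named from markers; the study's own names were not used.

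UMIs were summed per mouse and class (mean and SD over 4 mice), and genotypes were compared with edgeR 4.0.16 (filterByExpr, TMM, glmQLFTest, Benjamini-Hochberg over all genes of a class, threshold 0.05) and, for single sums, the exact permutation test. The p-values measure the spread between these mice of 1 pool, and UMI counts carry counting error besides. On simulated data, 97% of 4-fold and 42% of 2-fold changes were recovered in stroma-like cells (10124 genes), and 80% and 37% in cluster 21 (5508 genes). The simulated counts gave every gene the same fixed dispersion around its mean over the mice. These shares therefore do not measure what could be recovered between the real mice. Values per mouse are given for the 3 highest collagens of each class, all chains of collagens IV and VI, and, from the lists, genes that passed or otherwise the 3 with the highest level; other collagens and the list genes with an unadjusted p under 0.05 were named after their values were seen. Proteins were not compared. Members and lists were chosen with earlier results of these data known. Alternatives were DESeq2 1.42.0, RLE factors, no filter, resolutions of 0.4 and 1.2, collagens kept in the clustering, assignment by tag share, a minimum of 2500 UMIs, each mouse left out and, chosen after seeing the data, clara in HTODemux and cluster 6 or cluster 4 in place of the stroma-like or endothelial-like class.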

Additional observations from a re-analysis of the deposited data

Results flagged for a closer look

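The genotype difference of Col1a2 was called unlike in stroma-like and endothelial-like cells, a call that depended on the cells taken as endothelial-like. The difference between the classes was 1.52 on the log2 scale (SE 0.24, adjusted p = 0.0294 by edgeR with the mouse as a block). Col1a2 was 2218 and 1780 in the ko mice against 1508 and 1133 TMM-scaled CPM in the wt mice in stroma-like cells, and 50 and 26.6 against 64.6 and 77.6 in endothelial-like cells. The ko mice were above the wt mice in the first class and below in the second. Of 29 collagens tested 1 passed, against 0.103% of all genes, and 13 had an unadjusted p under 0.05, against 6.43%. The free RNA level of Col1a2 in endothelial-like cells was 24.3 CPM at the median ratio of 29.9%, close to the value of ko mouse 2. At the smallest ratio of 12.7% it lay below every mouse. With cluster 4 alone, the larger of the 2 endothelial-like clusters, the difference was 1.39 and did not pass (adjusted p = 0.0804, with 0 of 29 collagens passing and 10 at an unadjusted p under 0.05), an alternative chosen after the data had been seen. Without ko mouse 2 it was 1.25 (adjusted p = 0.109), and over the alternatives it ranged from 1.16 to 1.86.

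The genotype difference of Col11a1 differed between stroma-like cells and cluster 21, by −3.08 (SE 0.44, adjusted p = 0.0156). Col11a1 was 42.4 and 41.6 in the ko mice against 40.8 and 36.3 TMM-scaled CPM in the wt mice in stroma-like cells, and 142 and 126 against 15.6 and 13 in cluster 21. Of 27 collagens tested 1 passed, against 0.119% of all genes, and 9 had an unadjusted p under 0.05, against 6.38%. With each mouse left out in turn the difference stayed between −3.16 and −2.99. Both pairs of classes were chosen after the data had been seen. The cluster 21 values of Col11a1 are those of the call described above, so this difference is not a separate result.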

How the results depend on the processing

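In proximal tubule-like cells Col1a1, Col1a2 and Col3a1 turned upward without wt mouse 3 (0.98, 1.12 and 1.12) and were lowest without wt mouse 4 (−1.58, −1.56 and −1.54). In stroma-like cells differences near 0 changed sign. With a mouse left out Col4a1 ran from −0.20 to 0.22 (−0.14 without wt mouse 4), Col4a2 from −0.046 to 0.22 (−0.025 without wt mouse 4) and Col18a1 from −0.095 to 0.17 (−0.083 without ko mouse 1). Without a filter Col4a1 was −0.00071 and Col18a1 −0.0070, and with tag share Col18a1 was −0.17. Col1a2 in cluster 21 became −0.17 with clara and −0.19 with collagens kept, and Col18a1 in early nephron-like cells −0.11 at a resolution of 1.2. Col5a2 in endothelial-like cells became −0.035 in cluster 4 alone. The other results tabulated kept their sign. The 1 collagen test that passed became 3 with DESeq2 (0.449% of the 668 collagen tests, taken with or without an adjusted p, and 0.215% of all tests with one). It became 2 at a resolution of 1.2 (0.813% of the collagen tests and 0.406% of all tests) and 21 without a filter on low counts (3.14% and 1.52%). It became 0 with clara, with collagens kept in the clustering, with assignment by tag share and with a minimum of 2500 UMIs, the 4 settings in which cluster 21 joined an early nephron-like class. With a mouse left out the count ran from 1 to 53 (2 without ko mouse 2, 30 without wt mouse 3, 53 without wt mouse 4), which was 0.69%, 11.2% and 19.3% of the collagen tests against 0.389%, 2.4% and 12.8% of all tests. The 1 list test that passed became 2 with DESeq2, with collagens kept, with tag share and at a resolution of 1.2, 3 with a minimum of 2500 UMIs, 48 without a filter, 0 at a resolution of 0.4, and 3 to 145 with a mouse left out (4 and 3 without ko mouse 1 and ko mouse 2, 23 and 145 without wt mouse 3 and wt mouse 4). The lone mouse of a genotype is then assumed to vary like the pair, and the cause of the larger counts was not tested. Collagens whose genotype difference was called unlike in stroma-like and proximal tubule-like cells numbered 0, 8 of 42 without a filter (1.28% of all genes), and 0 to 8 with a mouse left out (1 without ko mouse 2, 1 without wt mouse 3, 8 of 35 without wt mouse 4, where 0.609%, 0.573% and 2.75% of all genes were called); against NPC-like cells 0 throughout. The count of 21 collagens highest in stroma-like or mural-like cells was 20 to 21 with a mouse left out, 23 of 38 with tag share and 15 of 26 with at least 500 UMIs, and the summed stroma-like ratio ran from 1.31 to 1.70 over the alternatives (1.34 to 1.70 with a mouse left out, 1.32 in cluster 6 alone, chosen after seeing the data, and 1.31 to 1.39 in the 4 regroupings that left cluster 14 out of the class). No paired analysis was possible because the 4 tagged mice share no number across genotypes and the bulk samples were not analysed. Depth limits the 13 members that could not be tested and classes with few cells, the smallest with 85.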
